A study of Mus musculus with 22 samples.

Results

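Wild-type mouse CD8+ T cells were compared 48 h after activation with naive cells of the same mice. The comparison used 6 of the 22 libraries of the series, chosen by their labels: 3 libraries of naive cells and 3 libraries of cells at 48 h, from 3 mice that each gave 1 library per time. The mice belonged to the line Tcaim KI Cd4Cre and carry the genotype label wtcre, and they came from experiments 1, 3 and 5 (2 males and 1 female; no ages are given in the labels). Cd4Cre names a Cre recombinase under Cd4 regulatory sequences, which acts in developing T cells, and the labels do not spell out whether wtcre mice carry it. Cells of both groups were isolated from spleens and lymph nodes, using magnetic beads to deplete the rest. The naive group is labelled 0 h. The other group was cultured for 48 h on plate-bound anti-CD3 (2 µg/ml) with soluble anti-CD28 (1 µg/ml), antibodies against the signalling chains of the antigen receptor and against its main costimulatory partner. No culture without these antibodies was analysed here, so stimulation and 48 h in culture cannot be told apart. Libraries of the same 3 mice at 24 h are given where they show the path between both ends. Libraries of 3 mice with a conditional knock-in of Tcaim (KI, genotype hocre, same line) and of 2 mice labelled as conditional knockout (KO, genotype hocre, line Tcaim KO Cd4Cre) enter only the tests of whether the response differed by genotype.

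Naive CD8+ T cells are small, quiescent cells that recirculate through lymphoid tissue and live on interleukin-7 and weak receptor signals. Engagement of the T cell receptor with CD28 makes them grow, remodel their metabolism, enter the cell cycle and differentiate into killer cells that store granzymes and secrete interferon-gamma. In doing so they lose transcription factors that keep quiescence, such as Klf2 and Foxo1, and the receptors that hold them on the route through lymph nodes.

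Total counts of the 9 wild-type libraries ran from 62551905 to 87452836. Naive and stimulated libraries of the series separated on the first principal component (74.8% of the variance of 11375 genes). On the second (8.28%) the 48 h library of experiment 3 lay at -31.2 against -4.99 and 5.11 for the other wild-type libraries at 48 h. The summed level of 6 T cell markers (Cd3d, Cd3e, Cd3g, Cd247, Cd8a and Cd8b1) was 3984 to 4618 counts per 1e6 total counts (CPM; sums of markers are not TMM-scaled, whereas CPM of single genes are divided by library sizes that TMM adjusts for composition) in naive libraries and 2224 to 2857 CPM at 48 h. Summed levels of most markers of other cells were lower at 48 h: 9 B cell markers summed to 383 to 606 CPM naive and 60.0 to 176 CPM at 48 h, 12 myeloid markers to 139 to 279.7 and 20.2 to 32.6 CPM, and 8 natural killer or innate-like markers to 48.9 to 113 and 3.77 to 10.1 CPM. Of these 29 markers of other cells none was at 0 in all libraries of a group. Of the 9 B cell markers 8 were called lower, but 3 without experiment 1 and 2 without experiment 3. The 5 markers of CD4 and regulatory T cells overlapped between the times, at 59.4 to 102 CPM naive and 51.3 to 81.4 CPM at 48 h, with 1 called higher, 1 lower and 3 not called. The 12 erythroid, platelet and stromal markers, of which 11 were tested, summed to 189 to 230.3 CPM naive and 85.5 to 91.2 CPM at 48 h, where 3 of them were at 0 in all libraries. Log2 fold changes of the 11 ran from -6.78 to -0.96 with a median of -6.37. The sum at 48 h thus rests on the members that fell less and does not stand for the list. Log2 fold changes of the 8 natural killer or innate-like markers ran from -9.22 to -1.50 (median -7.64). Those of the 12 myeloid markers ran from -11.1 to -0.55 (median -5.04). At 48 h the sums of these lists, too, rest on members that fell less. Which cells the RNA of a marker came from was not measured. Whether a lower level of such markers reflects fewer of those cells or less of their RNA cannot be told apart in bulk RNA.

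Of 21183 genes tested, 11942 (56.4%) differed between 48 h and naive in the edgeR quasi-likelihood test at an adjusted p under 0.05. With no filter on low counts 11465 of 30301 genes did, and without experiments 1, 3 and 5 in turn 8780 of 21065, 10377 of 20974 and 10351 of 21026. Of all tested genes 29.6% were called higher and 26.8% lower. Changes of at least 2-fold were called in 3881 genes upward (18.3%) and 3682 downward (17.4%), and changes of at least 8-fold in 933 upward (4.4%) and 1091 downward (5.15%). The direction was shared by all 3 mice in 98.2% of called genes, and in 61.2% of tested genes the 3 CPM values of each time did not overlap. The median log2 fold change over all tested genes was -0.04. With upper-quartile scaling in place of TMM scaling the median fell by a further 0.22 and the split turned from 6264 higher and 5678 lower to 5131 higher and 7183 lower. Small changes therefore have a direction only relative to the scaling, and members of a list are read below against 29.6% higher and 26.8% lower.

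**Figure D1:**
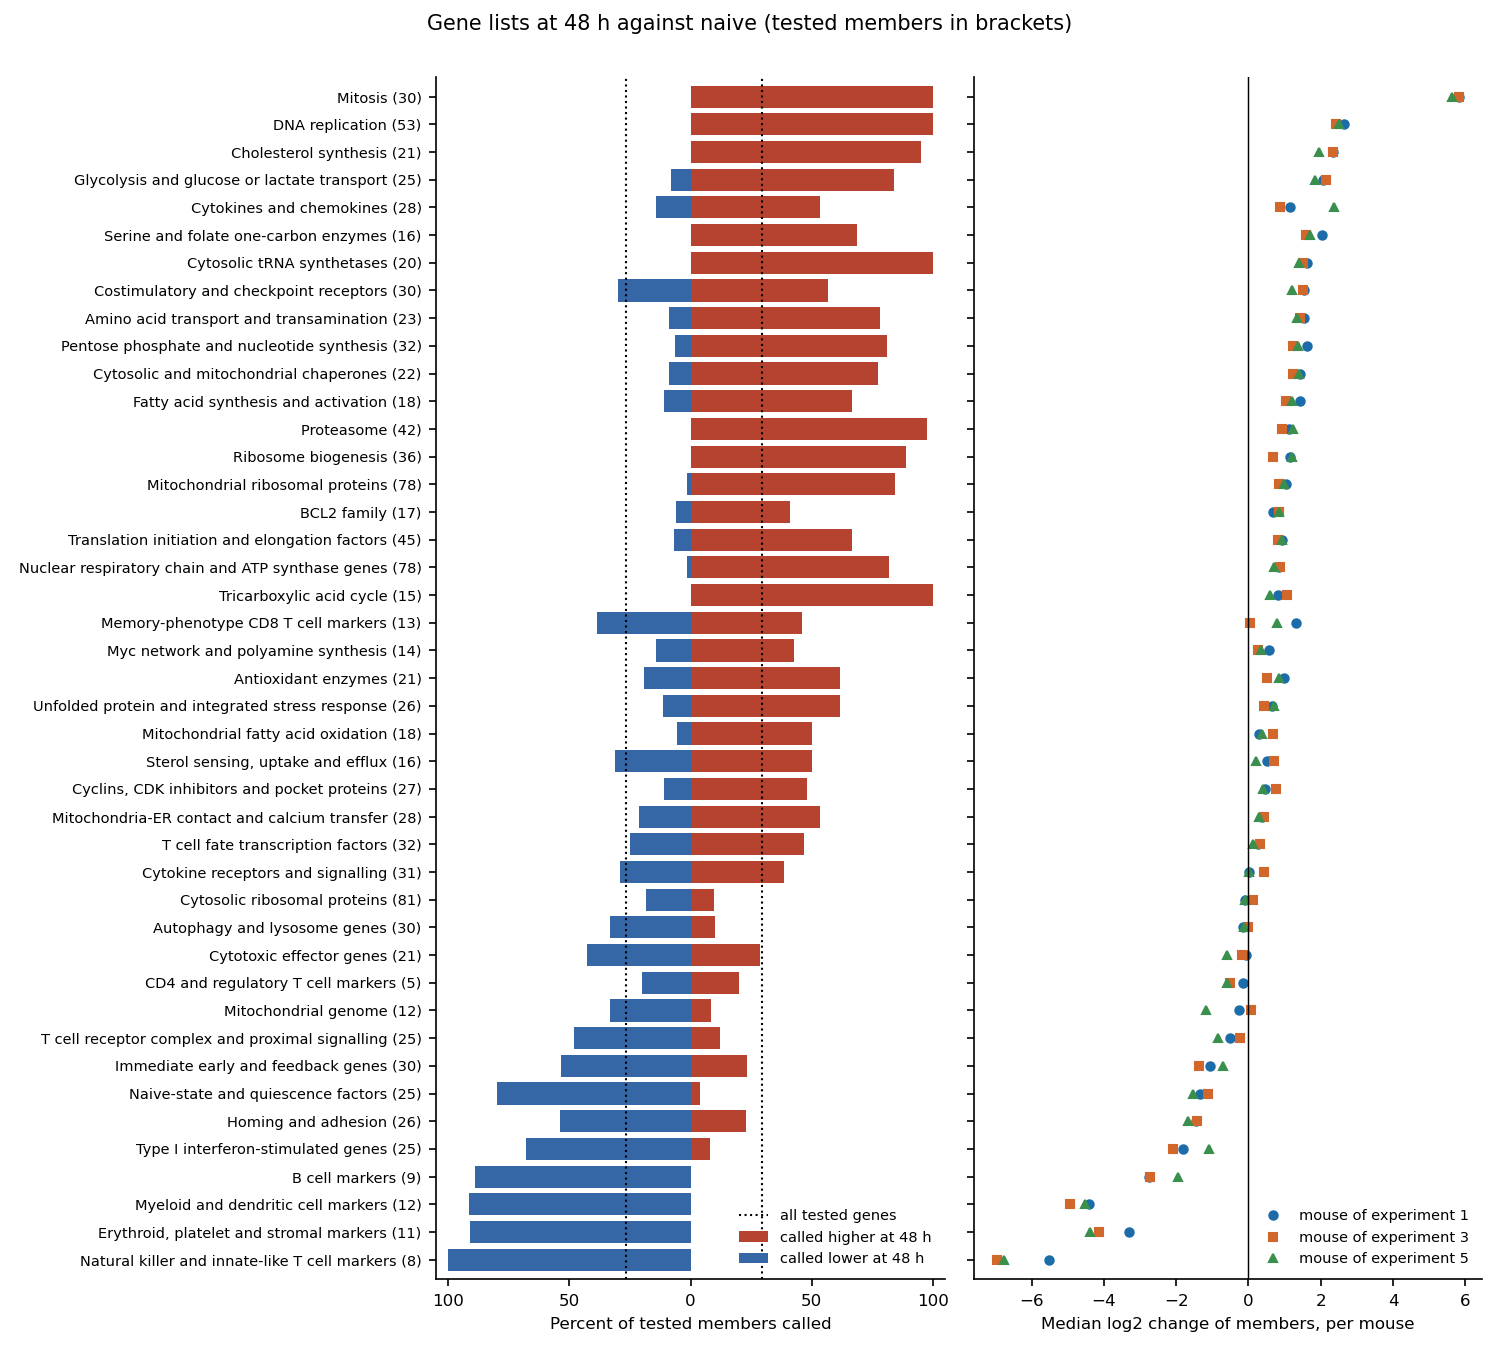
Percent of the tested members of 43 gene lists called higher (red, to the right) or lower (blue, to the left) at 48 h against naive, with dotted lines at the shares of all tested genes, 29.6% higher and 26.8% lower (left), and the median log2 change of the members within each of the 3 mice (right). Mitosis and DNA replication stand at the top with all members called higher. Natural killer, erythroid, myeloid and B cell markers stand at the bottom, and CD4 and regulatory T cell markers lie higher up.

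Cell cycle genes had the highest medians of all lists. All 53 genes of DNA replication and all 30 genes of mitosis were called higher, with median log2 fold changes of 2.51 and 5.82. Mitosis genes took 0.0284, 0.0299 and 0.0280 percent of all counts in the naive libraries of experiments 1, 3 and 5 and 0.620, 0.689 and 0.530 percent at 48 h. Replication genes went from 0.191, 0.197 and 0.184 percent to 0.927, 0.840 and 0.848 percent. The order of experiments 1, 3 and 5 is kept for every set of 3 values that follows.

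Promoter sequences of 4 of these and related genes are shown because the promoter elements marked in them are known from genes of replication, mitosis and sterol synthesis; whether an element bears on a change was not tested. They are RefSeq promoters of GRCm38.p6, from 250 bases before to 50 bases after the start of the gene, read 5′ to 3′ on the strand of the gene. Capitals mark the searched letters on either strand: TTTCCCGC, TTTGGCGC or TTTCGCGC as E2F elements, TTTGAA as the cell cycle homology region (CHR), and TCACNCCAC as a sterol element.
Cdc6 (chr11:98907901-98908200, plus strand): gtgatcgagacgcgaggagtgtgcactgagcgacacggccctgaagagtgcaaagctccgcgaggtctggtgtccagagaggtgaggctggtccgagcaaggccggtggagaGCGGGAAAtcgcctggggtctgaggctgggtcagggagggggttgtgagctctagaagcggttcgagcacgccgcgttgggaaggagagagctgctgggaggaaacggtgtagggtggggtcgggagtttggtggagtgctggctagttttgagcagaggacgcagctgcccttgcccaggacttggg
Mcm5 (chr8:75109259-75109558, plus strand): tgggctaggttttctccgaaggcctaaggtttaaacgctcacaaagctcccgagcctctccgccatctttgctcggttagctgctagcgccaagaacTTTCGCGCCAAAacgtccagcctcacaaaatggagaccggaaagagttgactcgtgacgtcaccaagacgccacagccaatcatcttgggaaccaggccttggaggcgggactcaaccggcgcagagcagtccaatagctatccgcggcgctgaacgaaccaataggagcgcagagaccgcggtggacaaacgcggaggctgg
Cdk1 (chr10:69352863-69353162, minus strand): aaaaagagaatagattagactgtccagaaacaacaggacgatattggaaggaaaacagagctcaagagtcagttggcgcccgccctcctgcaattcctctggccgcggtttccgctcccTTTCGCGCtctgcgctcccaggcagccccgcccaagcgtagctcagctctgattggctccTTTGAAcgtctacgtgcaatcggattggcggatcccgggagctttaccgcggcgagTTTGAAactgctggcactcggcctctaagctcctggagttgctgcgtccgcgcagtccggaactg
Hmgcs1 (chr13:119690101-119690400, plus strand): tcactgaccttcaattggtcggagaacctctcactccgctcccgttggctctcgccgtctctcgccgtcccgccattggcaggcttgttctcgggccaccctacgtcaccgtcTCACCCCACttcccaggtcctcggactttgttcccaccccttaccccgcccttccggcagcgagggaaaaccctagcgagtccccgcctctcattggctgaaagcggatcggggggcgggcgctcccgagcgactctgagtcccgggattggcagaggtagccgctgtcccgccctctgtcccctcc
Cdc6 held 1 E2F match, first base at -138 from the start. Mcm5 held 2 that overlap each other, at -153 and -149. Cdk1 held an E2F match at -131 and CHR matches at -71 and -15. Hmgcs1, which makes the substrate of the first committed step of cholesterol synthesis, held 1 sterol element at -137.

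Shares of promoters with a match differed between motifs and groups. An E2F match was found in 20 of 56 promoters of replication genes (35.7%; 44 genes of the list were in the promoter table), against 1.84% of 32851 promoters of all genes. A CHR match was found in 20 of 27 promoters of mitosis genes (74.1%), against 17.9% of all promoters. When only the 250 bases before the start were searched these shares were 23.2% and 37.0%, against 1.53% and 15.99% of all promoters. In either search 1 of 27 promoters of mitosis genes held an E2F match (3.70%), that of Cdk1 printed above. The letters CCAAT stood in 77.8% of mitosis promoters and 78.9% of cholesterol synthesis promoters against 37.4% overall. They were also frequent in promoters of serine and folate enzymes (66.7%), replication genes (58.9%) and tRNA synthetases (53.8%). Shares were 39.3% for immediate early, 31.6% for ribosome biogenesis, 29.7% for naive-state and 25.9% for amino acid transport genes. The sterol element was found in 1 of 19 promoters of cholesterol synthesis genes (5.26%) against 1.24% overall. The letters TGATGNAA, an amino acid response element, stood in 5 of 13 promoters of tRNA synthetase genes (38.5%) and 6 of 27 of amino acid transport genes (22.2%), against 3.97% of all promoters, and in 0 of 15 promoters of serine and folate enzymes. The promoters of Psat1 and Nr4a1 held no match to the amino acid response element and to the cyclic AMP response element TGACGTCA, respectively. A match is a description of letters, not a measured site.

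Origin licensing and firing genes rose from unequal naive levels. Cdc6, which loads the replicative helicase at origins (ENSMUSG00000017499, chromosome 11, 98907801 to 98923940), stood at 1.86, 2.71 and 1.30 CPM naive, 113, 123 and 73.5 CPM at 24 h and 114, 90.2 and 109.7 CPM at 48 h (log2 fold change 5.74 ± 0.34 SE, edgeR adjusted p = 3.09e-10). The helicase subunit gene Mcm5 stood at 51.9, 49.2 and 51.2 CPM naive, 572, 627 and 374 CPM at 24 h and 394, 373 and 292 CPM at 48 h (log2 fold change 2.80 ± 0.17 SE, edgeR adjusted p = 3.67e-10). For both genes every library at 24 h and 48 h lay far above every naive library, and Mcm5 was higher at 24 h than at 48 h in all 3 mice. Cdc45, a helicase cofactor, went from 3.51, 3.01 and 3.64 to 132, 118 and 146 CPM (log2 fold change 5.29 ± 0.22 SE, edgeR adjusted p = 8.72e-12). Mcm10, E2f7, Uhrf1, Chek1 and Orc1 rose too, with log2 fold changes of 6.77, 5.90, 5.09, 5.44 and 4.88. E2f1, which drives genes of the S phase, went from 2.29, 3.03 and 2.50 to 50.7, 47.4 and 49.6 CPM, and Pcna, the sliding clamp, from 89.6, 91.9 and 76.3 to 324, 235 and 386 CPM. The groups did not overlap for either gene.

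Mitotic genes had their highest mean levels at 48 h. Cdk1, the kinase that starts mitosis (ENSMUSG00000019942, chromosome 10, 69335146 to 69352938), stood at 1.61, 1.54 and 1.65 CPM naive, 74.5, 122 and 50.1 CPM at 24 h and 172, 151 and 191 CPM at 48 h (log2 fold change 6.74 ± 0.38 SE, edgeR adjusted p = 1.83e-10). In each mouse the 24 h value lay between the naive and the 48 h value. Plk1, a mitotic kinase, followed the same course with 2.72, 2.0 and 2.53, then 20.3, 55.4 and 12.4, then 120.4, 101 and 81.1 CPM (log2 fold change 5.38 ± 0.47 SE, edgeR adjusted p = 2.92e-08). Among the 30 mitosis genes called higher at 48 h, 0 had a higher mean at 24 h than at 48 h, whereas 29 of the 53 replication genes did, and 26.4% of all genes called higher. The proliferation marker Mki67 went from 17.6, 15.4 and 13.5 to 1079, 1265 and 754 CPM, and Top2a, which untangles chromosomes, from 20.01, 18.3 and 17.3 to 1131, 1320.1 and 1001 CPM. Among the 48 h libraries both were lowest in experiment 5, which still lay far above every naive library. Bub1 (log2 fold change 7.12), Ccnb1 (log2 fold change 6.90) and Aurkb (log2 fold change 6.72), of the spindle checkpoint and mitotic entry, were among the steepest.

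Cyclins and their inhibitors changed less uniformly: of 27 tested, 13 were higher, 3 lower and 11 not called, with a median log2 fold change of 0.41. The lower count was 6 under upper-quartile scaling and 5 without experiment 3. Genes of the G1 to S transition rose, with log2 fold changes of 2.44 for Ccne1 (cyclin E1), 1.5 for Cdk4 and 1.75 for Cdk6, the kinases of D-type cyclins. Ccnd2, a D-type cyclin, was high already in naive cells at 531, 583 and 512 CPM and stood at 711, 526 and 681 CPM at 48 h, which was not called (log2 fold change 0.24 ± 0.20 SE, edgeR adjusted p = 0.316). Cdkn1b, which encodes the inhibitor p27 of quiescent cells, fell from 169, 202 and 157 to 58.3, 107 and 64.8 CPM (log2 fold change -1.20 ± 0.33 SE, edgeR adjusted p = 0.00438). Without the libraries of experiment 1 this call was lost (edgeR adjusted p = 0.0541). Cdkn1a, which encodes the inhibitor p21, moved the other way, from 2.53, 4.27 and 2.38 to 82.1, 75 and 194 CPM (log2 fold change 5.26 ± 0.57 SE, edgeR adjusted p = 3.73e-07). At 48 h it was highest in experiment 5, and without that experiment the log2 fold change was 4.53. Rbl2, a pocket protein that restrains E2F in resting cells, was not called (log2 fold change -0.46 ± 0.22 SE, edgeR adjusted p = 0.0859). Only 5 of 11 alternative fits left it so, and it was called lower, for example, under upper-quartile scaling (edgeR adjusted p = 0.0176) and without experiment 3 (edgeR adjusted p = 0.0300).

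**Figure D2:**
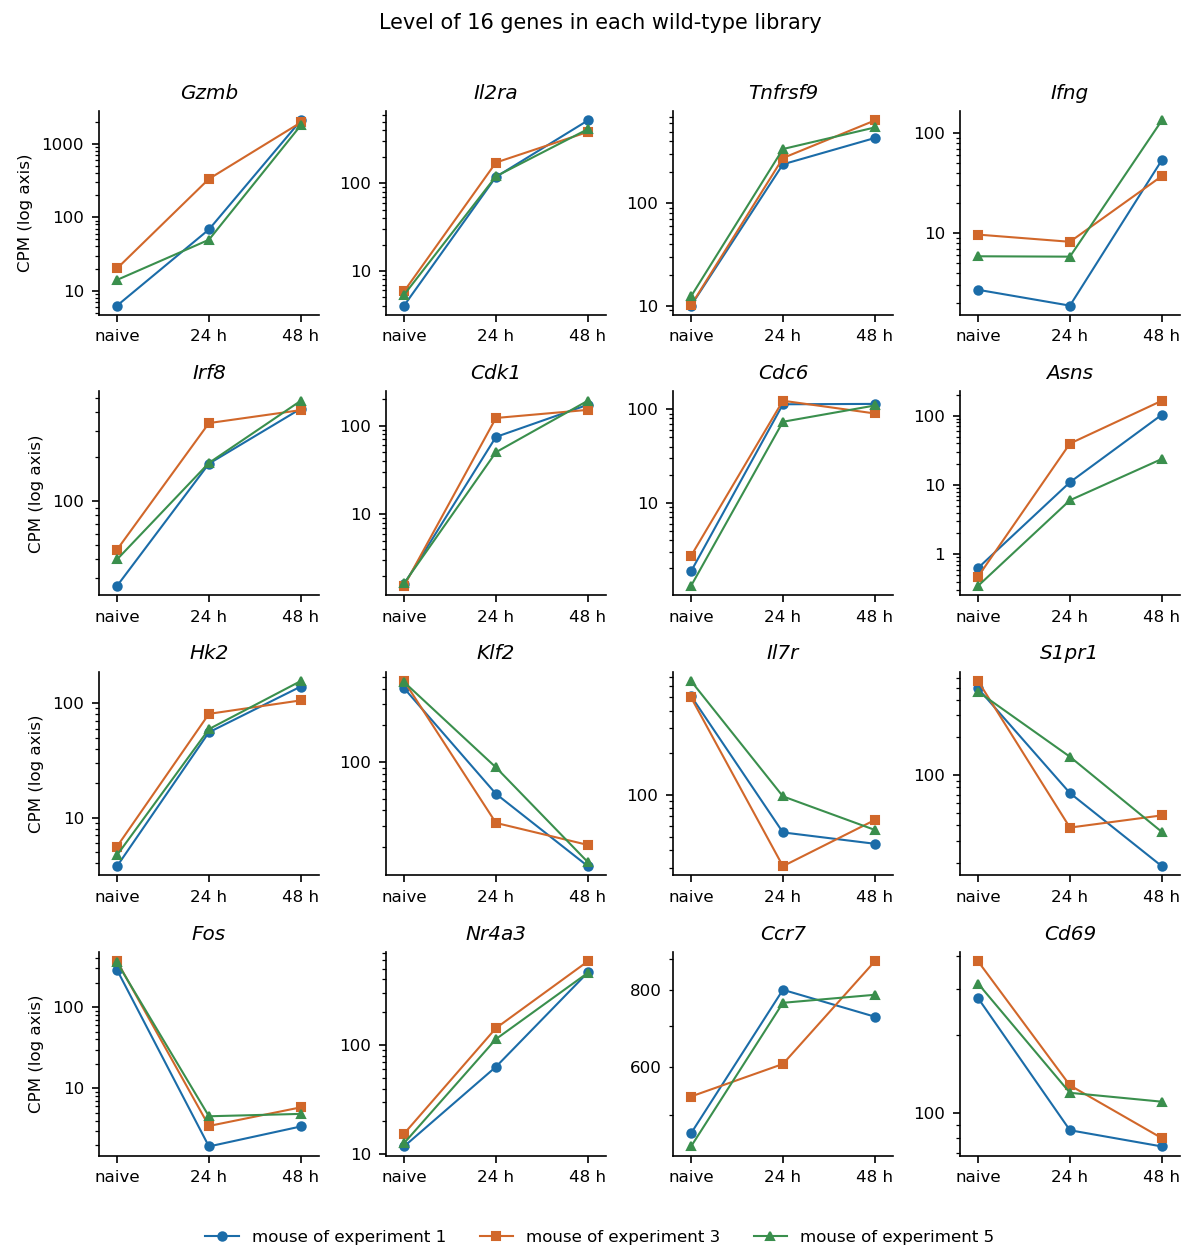
Level of 16 genes in CPM (log axis, own range for each gene) in every wild-type library, naive, at 24 h and at 48 h, with lines joining the libraries of 1 mouse. Granzyme, receptor, cell cycle and metabolic genes climb in all 3 mice, Klf2, Il7r, S1pr1, Fos and Cd69 fall in all 3, and Ccr7 ends above its naive level.

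Genes that keep naive T cells quiescent fell as a group: 20 of 25 were lower, 1 was higher and 4 were not called, with a median log2 fold change of -1.22. Klf2, a zinc finger factor that drives expression of exit receptors (ENSMUSG00000055148, chromosome 8, 72319033 to 72321656), stood at 404, 463 and 454 CPM in naive cells and 13.9, 20.8 and 15.1 CPM at 48 h (log2 fold change -4.73 ± 0.33 SE, edgeR adjusted p = 1.79e-09). Txnip, which restrains glucose uptake, went from 857, 907 and 1276 to 122, 169 and 185 CPM (log2 fold change -2.67 ± 0.25 SE, edgeR adjusted p = 6.97e-08). The antiproliferative gene Btg1 went from 1198, 1335 and 1166 to 231, 237 and 347 CPM (log2 fold change -2.18 ± 0.23 SE, edgeR adjusted p = 2.79e-07). All 3 libraries at 48 h lay below all naive libraries for each of these genes. Tcf7 and Lef1, which encode the factors TCF-1 and LEF-1 of naive and stem-like T cells, kept sizeable levels: Tcf7 stood at 1484, 1326 and 1439.6 CPM in naive cells and 669, 737 and 597 CPM at 48 h (log2 fold change -1.08 ± 0.17 SE, edgeR adjusted p = 3.34e-05). Foxo1 (log2 fold change -1.23) and Lef1 (log2 fold change -1.58) fell as well. Id3, an inhibitor of E proteins on the same list, was the 1 gene that rose (log2 fold change 0.89 ± 0.21 SE, edgeR adjusted p = 0.00174), and the repressor gene Bach2 stood at 139.8, 167 and 129 CPM naive, 248, 222 and 265 CPM at 24 h and 128, 169.9 and 109 CPM at 48 h, which was not called over the 48 h (log2 fold change -0.10 ± 0.15 SE, edgeR adjusted p = 0.594). Together the 25 genes took 1.06, 1.11 and 1.12 percent of all counts naive and 0.342, 0.400 and 0.360 percent at 48 h.

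Homing and adhesion genes split, with 14 of 26 lower, 6 higher and 6 not called (median log2 fold change -1.5). The lower share was 53.8% against 26.8% of all tested genes, and the higher share 23.1% against 29.6%. S1pr1, the receptor for exit from lymph nodes, went from 492, 564 and 464 to 18.8, 47.7 and 35.2 CPM (log2 fold change -3.90 ± 0.46 SE, edgeR adjusted p = 1.14e-06), and the groups lay well apart. Ccr7, the chemokine receptor for entry into lymph nodes, went the other way: it stood at 467, 536 and 444 CPM in naive cells and 724, 892 and 786 CPM at 48 h and rose in all 3 mice (log2 fold change 0.73 ± 0.14 SE, edgeR adjusted p = 2.07e-04). The gut homing receptor Ccr9 was nearly lost, from 204, 201 and 216 to 4.74, 8.77 and 11.3 CPM (log2 fold change -4.64 ± 0.39 SE, edgeR adjusted p = 1.67e-08). Itgae, which encodes the integrin CD103, fell (log2 fold change -3.25), as did Cxcr4 (log2 fold change -3.10). Cd44, an adhesion receptor of antigen-experienced cells, rose from 16.3, 28.3 and 31.2 to 85.2, 137 and 69.7 CPM (log2 fold change 1.95 ± 0.40 SE, edgeR adjusted p = 4.18e-04), and Ccr4, a receptor for skin homing, from 0.696, 1.28 and 1.73 to 19.3, 10.2 and 29.2 CPM (log2 fold change 3.99 ± 0.56 SE, edgeR adjusted p = 8.27e-06). Cd69, often used as an early activation marker, was lower at 48 h: 277, 383 and 315 CPM naive, 85.7, 128 and 119 CPM at 24 h and 74.2, 79.9 and 110.3 CPM at 48 h (log2 fold change -1.88 ± 0.19 SE, edgeR adjusted p = 1.62e-07).

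Among 25 genes of the T cell receptor complex and its proximal signalling 12 were lower, 3 higher and 10 not called, with a median log2 fold change of -0.50. The lower count was 8 without experiment 5 and 18 under upper-quartile scaling. Under upper-quartile scaling or without experiment 3 none of the 3 higher calls remained, and 1 was left without experiment 1. Cd8b1, of the CD8 coreceptor, stood at 1151, 981 and 1238 CPM in naive cells and 519, 557 and 514 CPM at 48 h (log2 fold change -1.08 ± 0.15 SE, edgeR adjusted p = 7.32e-06). Lck, the kinase bound to it, stood at 922, 819 and 895 and 513, 553 and 475 CPM (log2 fold change -0.77 ± 0.10 SE, edgeR adjusted p = 4.13e-06). The groups did not overlap for either gene. Prkcq, which encodes the kinase PKC-theta, fell most in this list among genes above 5 CPM (log2 fold change -1.38 ± 0.15 SE, edgeR adjusted p = 2.75e-07).

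Costimulatory and checkpoint receptors changed in both directions, 17 of 30 higher, 9 lower and 4 not called, with a median log2 fold change of 1.44. The higher share was 56.7% against 29.6% of all tested genes, and the lower share, 30%, was near their 26.8%. Tnfrsf9, which encodes the costimulatory receptor 4-1BB, went from 10.02, 10.1 and 12.3 to 432, 641 and 548 CPM (log2 fold change 5.64 ± 0.24 SE, edgeR adjusted p = 8.72e-12). Lag3, an inhibitory receptor, went from 2.15, 3.29 and 2.88 to 171, 274 and 176 CPM (log2 fold change 6.22 ± 0.39 SE, edgeR adjusted p = 4.98e-10). Pdcd1, which encodes PD-1, went from 1.56, 1.65 and 3.10 to 46.8, 75.8 and 45.9 CPM (log2 fold change 4.74 ± 0.42 SE, edgeR adjusted p = 3.47e-08). Both were already high at 24 h, Lag3 at 129, 167 and 112 CPM and Pdcd1 at 46.3, 56.1 and 50.9 CPM. Tnfrsf4 (OX40) and Ctla4 were higher at 48 h than at 24 h in each mouse, with 23.3, 29 and 29.4 CPM at 24 h and 129.7, 159 and 122 CPM at 48 h for Tnfrsf4 and 109, 102 and 103 and 323, 319.6 and 193 CPM for Ctla4. Icos (log2 fold change 1.64) and Tnfsf4, the OX40 ligand (log2 fold change 6.53), were also higher. Cd28 itself stood at 93.7, 122 and 99.3 CPM naive, 599, 464 and 506 CPM at 24 h and 272, 375 and 211 CPM at 48 h (log2 fold change 1.45 ± 0.20 SE, edgeR adjusted p = 6.01e-06), so its highest level in each mouse was at 24 h. Vsir, which encodes the inhibitory receptor VISTA of quiescent T cells, fell from 434, 413 and 421 to 92.6, 122 and 112 CPM (log2 fold change -1.96 ± 0.19 SE, edgeR adjusted p = 1.13e-07).

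Among cytokine receptors and their signalling genes, 12 of 31 were higher, 9 lower and 10 not called. The higher share was 38.7% against 29.6% of all tested genes, and the lower share, 29.0%, was near their 26.8%. The median of this list was 0.16 and turned to -0.06 under upper-quartile scaling and to -0.02 without experiment 3. Il2ra, the high affinity chain of the interleukin-2 receptor (ENSMUSG00000026770, chromosome 2, 11642807 to 11693193), stood at 4.02, 5.84 and 5.34 CPM naive, 118, 172 and 119.9 CPM at 24 h and 520.2, 385 and 414 CPM at 48 h (log2 fold change 6.44 ± 0.42 SE, edgeR adjusted p = 6.20e-10). Il7r, the receptor for interleukin-7, did the opposite, with 509, 498 and 652, 53.7, 30.8 and 97.4 and 44.6, 65.9 and 56 CPM at the same times (log2 fold change -3.32 ± 0.48 SE, edgeR adjusted p = 1.33e-05). Il12rb2, which encodes the signalling chain for interleukin-12, rose from 3.93, 9.40 and 6.29 to 232, 305 and 119 CPM (log2 fold change 5.06 ± 0.69 SE, edgeR adjusted p = 5.84e-06). No naive library overlapped the 48 h libraries for these 3 receptors. Il6ra (log2 fold change -4.13) and Tgfbr2 (log2 fold change -1.93), for interleukin-6 and TGF-beta, fell. Of the feedback inhibitors, Cish rose (log2 fold change 3.29) and Socs3 fell (log2 fold change -2.20).

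Cytotoxic genes did not move as a block: of 21 tested, 6 were higher, 9 lower and 6 not called, with a median log2 fold change of -0.03 that turned to 0.07 without experiment 5. The higher share, 28.6%, was near the 29.6% of all tested genes, and the lower share was 42.9% against 26.8%. Gzmb, which encodes granzyme B (ENSMUSG00000015437, chromosome 14, 56258838 to 56262260), stood at 6.27, 20.1 and 14 CPM naive, 68.1, 333 and 49.4 CPM at 24 h and 2077, 1950.2 and 1784 CPM at 48 h (log2 fold change 7.17 ± 0.85 SE, edgeR adjusted p = 1.16e-06). The 48 h values were alike in the 3 mice although the 24 h values spread, with experiment 3 highest. By deposited FPKM, which divide by gene length, Gzmb ranked 5137 among 21674 listed genes in naive cells and 15 at 48 h, with a mean of 11.3 and 1527 FPKM. Gzmc, another granzyme, was called higher (log2 fold change 1.64 ± 0.66 SE, edgeR adjusted p = 0.0422) from a much lower level, 0.219, 1.04 and 0.301 CPM in naive cells and 0.882, 1.10 and 2.88 CPM at 48 h. That call held in 5 of 11 alternative fits. It was lost under upper-quartile scaling (edgeR adjusted p = 0.0760), with library size alone (0.0566) and with the compared groups alone, without (0.0786) and with the replicate block (0.0580). It was also lost without experiment 1 (edgeR adjusted p = 0.121) and without experiment 5 (log2 fold change 0.66, edgeR adjusted p = 0.487). Without experiment 3 its log2 fold change was 2.85. Prf1, which encodes the pore protein perforin, was lower at 48 h, with 48.1, 56.9 and 71.1 CPM in naive cells and 20.7, 32.5 and 46.9 CPM at 48 h (log2 fold change -0.82 ± 0.34 SE, edgeR adjusted p = 0.0494). The Prf1 call was lost without experiment 1 (edgeR adjusted p = 0.134) or experiment 3 (edgeR adjusted p = 0.146).

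Gzma, which encodes granzyme A (ENSMUSG00000023132, chromosome 13, 113093825 to 113100981), fell while Gzmb rose. It stood at 16.7, 66.6 and 74.6 CPM naive, 0.382, 1.13 and 1.87 CPM at 24 h and 0.107, 0.202 and 1.21 CPM at 48 h (log2 fold change -6.72 ± 0.96 SE, edgeR adjusted p = 1.06e-05). Without experiment 5 the log2 fold change was -8.07. The chemokine gene Ccl5 showed the same course, with 22.7, 66 and 66.8 CPM in naive cells and 3.66, 8.15 and 6.54 CPM at 48 h (log2 fold change -3.08 ± 0.50 SE, edgeR adjusted p = 4.62e-05). Naive cells of experiment 1 held the least of both, and they also held the least of the natural killer markers Klrb1c, at 6.79, 20.4 and 20.8 CPM, and Ncr1, at 5.02, 17.9 and 16.8 CPM. These markers fell to 0.0238, 0.0882 and 0.0938 CPM and 0.0119, 0.0126 and 0.107 CPM at 48 h, with log2 fold changes of -7.85 and -8.23. That of Ncr1 was -9.69 without experiment 5 and -7.52 without experiment 3. All 8 natural killer or innate-like markers were called lower. Among naive libraries that of experiment 1 also had the lowest summed share of B cell, myeloid, CD4 and regulatory T cell, and memory-phenotype markers. The last took 0.0532, 0.0734 and 0.0636 percent of counts, and Ccl5 is one of them. Erythroid, platelet and stromal markers were highest in that library. The part of natural killer, memory-phenotype or other cells in the fall of Gzma, Ccl5 and Klre1 (log2 fold change -2.83) was not tested. Among 13 memory-phenotype markers 6 were higher, 5 lower (3 without experiment 1 or 5) and 2 not called, and their summed level was 532 to 734 CPM naive and 977 to 1253 CPM at 48 h.

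**Figure D3:**
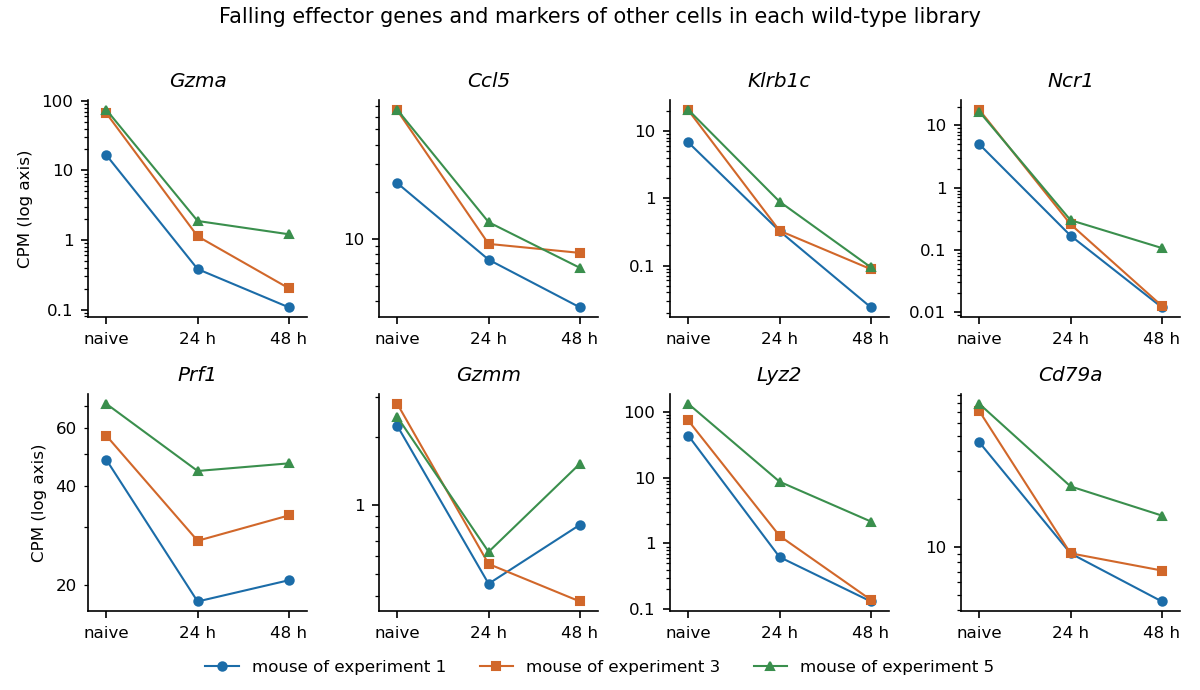
Level in CPM (log axis, own range for each gene) of effector genes with a naive level that fell, and of markers of natural killer cells (Klrb1c, Ncr1), myeloid cells (Lyz2) and B cells (Cd79a), in every wild-type library. Gzma and Ccl5 are lowest in the naive library of experiment 1, as are Klrb1c and Ncr1, and all fall by 24 h. Prf1 and Lyz2 are also lowest in that library among the naive ones.

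Cytokine and chemokine genes gave 15 of 28 higher, 4 lower and 9 not called, with a median log2 fold change of 2.05. Without experiment 5 the median was 0.99 with 10 higher, and without experiment 1 there were 11 higher. The medians within mice were 1.15, 0.86 and 2.37. Ifng, which encodes interferon-gamma (ENSMUSG00000055170, chromosome 10, 118441046 to 118445892), stood at 2.71, 9.66 and 5.86 CPM naive, 1.88, 8.18 and 5.81 CPM at 24 h and 53.7, 37.2 and 134 CPM at 48 h (log2 fold change 3.63 ± 0.76 SE, edgeR adjusted p = 5.51e-04). Its 24 h libraries lay within the naive range, except experiment 1, which was below it, and the rise came between 24 h and 48 h in all 3 mice. The log2 fold change was 4.45 without experiment 3 and 2.88 without experiment 5. Xcl1, a chemokine that attracts cross-presenting dendritic cells, rose earlier, with 4.02, 6.85 and 7.40, 117, 150.3 and 251 and 164, 195 and 425 CPM (log2 fold change 5.42 ± 0.58 SE, edgeR adjusted p = 2.99e-07). Ccl3 and Ccl4, inflammatory chemokines, were called higher (log2 fold changes 2.48 and 2.99), with 32.5, 29.6 and 163 CPM of Ccl3 and 33.4, 29.1 and 182 CPM of Ccl4 at 48 h. For both, experiment 5 stood far above the other mice. Without experiment 5 both calls were lost (edgeR adjusted p = 0.268 and 0.205), as was that of Ccl3 without experiment 1 (edgeR adjusted p = 0.0803) and that of Ccl4 without experiment 1 (edgeR adjusted p = 0.0509). Without experiment 3 the log2 fold changes were 3.13 and 3.83.

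Interleukin-2 stayed scarce. Il2 stood at 0.0258, 0 and 0.0950 CPM naive (2, 0 and 6 counts) and at 1.31, 1.47 and 7.36 CPM at 48 h (log2 fold change 6.38 ± 1.17 SE, edgeR adjusted p = 1.51e-04), so the large fold change starts from a few reads. Lif, a cytokine of the interleukin-6 family, went from 0.735, 1.02 and 0.570 to 44.5, 20.001 and 59 CPM (log2 fold change 5.72 ± 0.63 SE, edgeR adjusted p = 4.46e-07), and Lta, which encodes lymphotoxin alpha, from 14, 14.5 and 15.3 to 94.6, 42.3 and 115 CPM (log2 fold change 2.52 ± 0.46 SE, edgeR adjusted p = 1.28e-04). The groups did not overlap for these genes. Ltb, its membrane partner lymphotoxin beta, fell (log2 fold change -1.18 ± 0.27 SE, edgeR adjusted p = 0.00116).

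Transcription factors of T cell fate went in both directions: of 32 tested, 15 were higher, 8 lower and 9 not called, with a median log2 fold change of 0.21 that turned to -0.02 under upper-quartile scaling. The higher share was 46.9% against 29.6% of all tested genes, and the lower share, 25%, was near their 26.8%. Irf8, a factor of effector differentiation, stood at 26.4, 46.6 and 39.97 CPM in naive cells and 425, 415 and 481 CPM at 48 h (log2 fold change 3.55 ± 0.52 SE, edgeR adjusted p = 1.39e-05). Irf4, which scales with receptor signal strength, stood at 31.2, 59.99 and 30.3 CPM naive, 391, 410.2 and 397 CPM at 24 h and 361, 259 and 372 CPM at 48 h (log2 fold change 3.03 ± 0.43 SE, edgeR adjusted p = 1.04e-05). Tbx21, which encodes T-bet, went from 4.81, 10.8 and 9.17 to 62.3, 38.8 and 74.1 CPM (log2 fold change 2.82 ± 0.56 SE, edgeR adjusted p = 3.30e-04), and its relative Eomes from 34.3, 42.5 and 40.1 to 108, 122 and 126 CPM (log2 fold change 1.61 ± 0.35 SE, edgeR adjusted p = 6.81e-04). None of these 4 genes had overlapping groups. Zbtb32, a repressor of proliferating lymphocytes, was steepest in the list among genes above 5 CPM (log2 fold change 6.17 ± 0.49 SE, edgeR adjusted p = 8.26e-09). Bhlhe40 (log2 fold change 2.24 ± 0.55 SE, edgeR adjusted p = 0.00208) was highest at 48 h in experiment 3, with 127, 249 and 115 CPM. On the other side Id2, an inhibitor of E proteins with a role in effector cells, fell from 110.3, 111 and 116 to 16.8, 18.1 and 28.7 CPM (log2 fold change -2.41 ± 0.20 SE, edgeR adjusted p = 1.17e-08). Prdm1, which encodes Blimp-1, was low, with 3.0, 5.71 and 4.80 CPM in naive cells and 0.739, 1.34 and 1.06 CPM at 48 h (log2 fold change -2.11 ± 0.58 SE, edgeR adjusted p = 0.00456). Runx1 fell as well (log2 fold change -1.82).

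Immediate early genes were higher in the naive libraries than at 48 h: of 30 tested, 16 were lower, 7 higher and 7 not called (median log2 fold change -1.03). Fos, an AP-1 subunit (ENSMUSG00000021250, chromosome 12, 85473890 to 85477273), stood at 285, 365 and 353 CPM naive, 1.94, 3.46 and 4.55 CPM at 24 h and 3.41, 5.86 and 4.87 CPM at 48 h (log2 fold change -6.15 ± 0.30 SE, edgeR adjusted p = 4.42e-11). Dusp1, a phosphatase that shuts off MAP kinases, went from 186, 234 and 187 to 7.02, 8.65 and 7.45 CPM (log2 fold change -4.71 ± 0.19 SE, edgeR adjusted p = 8.72e-12). Junb, another AP-1 subunit, went from 712, 959 and 694 to 115, 144 and 147 CPM (log2 fold change -2.54 ± 0.23 SE, edgeR adjusted p = 4.85e-08). Each of these genes was far lower in every library at 48 h than in any naive library, and Fos was as low at 24 h. The nuclear receptor genes of the NR4A family, induced by receptor signalling, rose instead: Nr4a3 went from 11.8, 15.4 and 12.6 to 463, 586 and 459.9 CPM (log2 fold change 5.24 ± 0.33 SE, edgeR adjusted p = 4.98e-10) and Nr4a1 from 78, 140.1 and 70.02 to 178, 336 and 285 CPM (log2 fold change 1.47 ± 0.37 SE, edgeR adjusted p = 0.00258). Egr1, an early growth response factor, stood at 90.3, 115 and 91.2 CPM in naive cells and 55.3, 108 and 121 CPM at 48 h and was not called (log2 fold change -0.06 ± 0.35 SE, edgeR adjusted p = 0.886).

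Genes for making ribosomes rose, whereas genes for ribosomal proteins of the cytosol mostly did not pass the test. Of 36 ribosome biogenesis genes 32 were higher, 0 lower and 4 not called (median log2 fold change 1.01). Ncl, which encodes the nucleolar protein nucleolin, stood at 1020.1, 908 and 1012 CPM naive, 3963, 4295 and 3345 CPM at 24 h and 3783, 2839 and 4441 CPM at 48 h (log2 fold change 1.91 ± 0.18 SE, edgeR adjusted p = 7.90e-08). Npm1, a nucleolar chaperone, went from 305, 257 and 274 to 864, 846 and 962 CPM (log2 fold change 1.67 ± 0.12 SE, edgeR adjusted p = 1.82e-09). The biogenesis list took 1.22, 0.854 and 1.29 percent of counts at 48 h against 0.497, 0.481 and 0.470 percent naive, and the library of experiment 3 was the lowest at 48 h. Of 81 cytosolic ribosomal protein genes 8 were higher, 15 lower and 58 not called. The higher count was 4 under upper-quartile scaling or without experiment 3 and 5 without experiment 1, and the lower count was 26 under upper-quartile scaling and 7 without experiment 1. Their median of -0.02 turned to 0.02 without experiment 1 and to 0.000596 with no filter on low counts. Rplp0, of the ribosomal stalk, stood at 1350.3, 1139.5 and 1586 CPM in naive cells and 1297, 1249 and 1363 CPM at 48 h (log2 fold change -0.06 ± 0.15 SE, edgeR adjusted p = 0.744). Ribosomal protein genes have many near-identical pseudogenes, which can take or share their reads, so single values of this list are uncertain. Rps27 (log2 fold change -1.99) and Rps13 (log2 fold change -1.91) are examples, counted at only 3.96, 4.23 and 5.04 and 5.63, 5.49 and 6.14 CPM at 48 h.

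All 20 cytosolic tRNA synthetase genes rose, with a median log2 fold change of 1.48. Gars, the synthetase for glycine, stood at 128, 119 and 123 CPM in naive cells and 584, 483 and 452 CPM at 48 h (log2 fold change 2.04 ± 0.16 SE, edgeR adjusted p = 9.41e-09). Among 45 translation factor genes 30 were higher, 3 lower (5 under upper-quartile scaling) and 12 not called (median 0.87). Eif4ebp1, which encodes a repressor of cap-dependent translation controlled by mTOR, rose most, from 4.96, 5.83 and 6.78 to 74, 69.1 and 46.7 CPM (log2 fold change 3.43 ± 0.32 SE, edgeR adjusted p = 6.15e-08), and Eif4a2 fell from 784, 705 and 692 to 253, 329 and 281 CPM (log2 fold change -1.34 ± 0.23 SE, edgeR adjusted p = 7.38e-05). Myc, the driver of growth in activated T cells, was already abundant in naive libraries, at 171, 167 and 171 CPM, and stood at 376, 304 and 361 CPM at 48 h (log2 fold change 1.03 ± 0.19 SE, edgeR adjusted p = 1.47e-04). Odc1 (log2 fold change 1.95) and Srm (log2 fold change 2.38), of polyamine synthesis, rose, with Srm at 251, 110.4 and 273 CPM at 48 h and lowest in experiment 3. Of the 14 genes of the Myc network and polyamine list 6 were higher and 2 lower (4 under upper-quartile scaling, 0 without experiment 1 or 5 and 1 without experiment 3).

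Glycolysis genes rose: of 25 genes 21 were higher, 2 lower and 2 not called (median log2 fold change 2.13). Their summed share of counts was 0.235, 0.228 and 0.224 percent naive and 0.748, 0.995 and 0.690 percent at 48 h. Hk2, the inducible hexokinase that traps glucose, stood at 3.76, 5.59 and 4.70 CPM in naive cells and 140.05, 106 and 156 CPM at 48 h (log2 fold change 4.84 ± 0.31 SE, edgeR adjusted p = 5.69e-10). Hk1, the constitutive form, changed little by comparison, from 161, 143 and 138 to 219.5, 259 and 186 CPM (log2 fold change 0.59 ± 0.12 SE, edgeR adjusted p = 3.77e-04). Ldha, which makes lactate, went from 271, 265 and 319 to 1715, 1641 and 1595 CPM (log2 fold change 2.53 ± 0.16 SE, edgeR adjusted p = 4.87e-10). For these 3 genes every library at 48 h exceeded every naive library. Slc16a3, an exporter of lactate, rose from 1.68, 2.09 and 2.93 to 48.1, 121 and 28.2 CPM (log2 fold change 4.88 ± 0.56 SE, edgeR adjusted p = 7.66e-07), with experiment 3 far above the other mice. Its log2 fold change was 4.05 without experiment 3 and 5.49 without experiment 5. The glucose transporter gene Slc2a3 rested on that 1 library altogether: 74.6, 84.3 and 71.6 CPM in naive cells and 74.4, 299 and 79.5 CPM at 48 h (log2 fold change 0.97 ± 0.40 SE, edgeR adjusted p = 0.0438). The call held in 4 of 11 alternative fits, and was lost among others with the replicate block (edgeR adjusted p = 0.0857) and under upper-quartile scaling (edgeR adjusted p = 0.113). Leaving out experiment 3 ended it too (log2 fold change 0.07, edgeR adjusted p = 0.865). Gapdh, also a gene with many pseudogenes, was counted at only 18.3, 18 and 18.6 CPM in naive cells and 23.9, 25 and 17.2 CPM at 48 h and was not called (log2 fold change 0.27 ± 0.18 SE, edgeR adjusted p = 0.210).

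**Figure D4:**
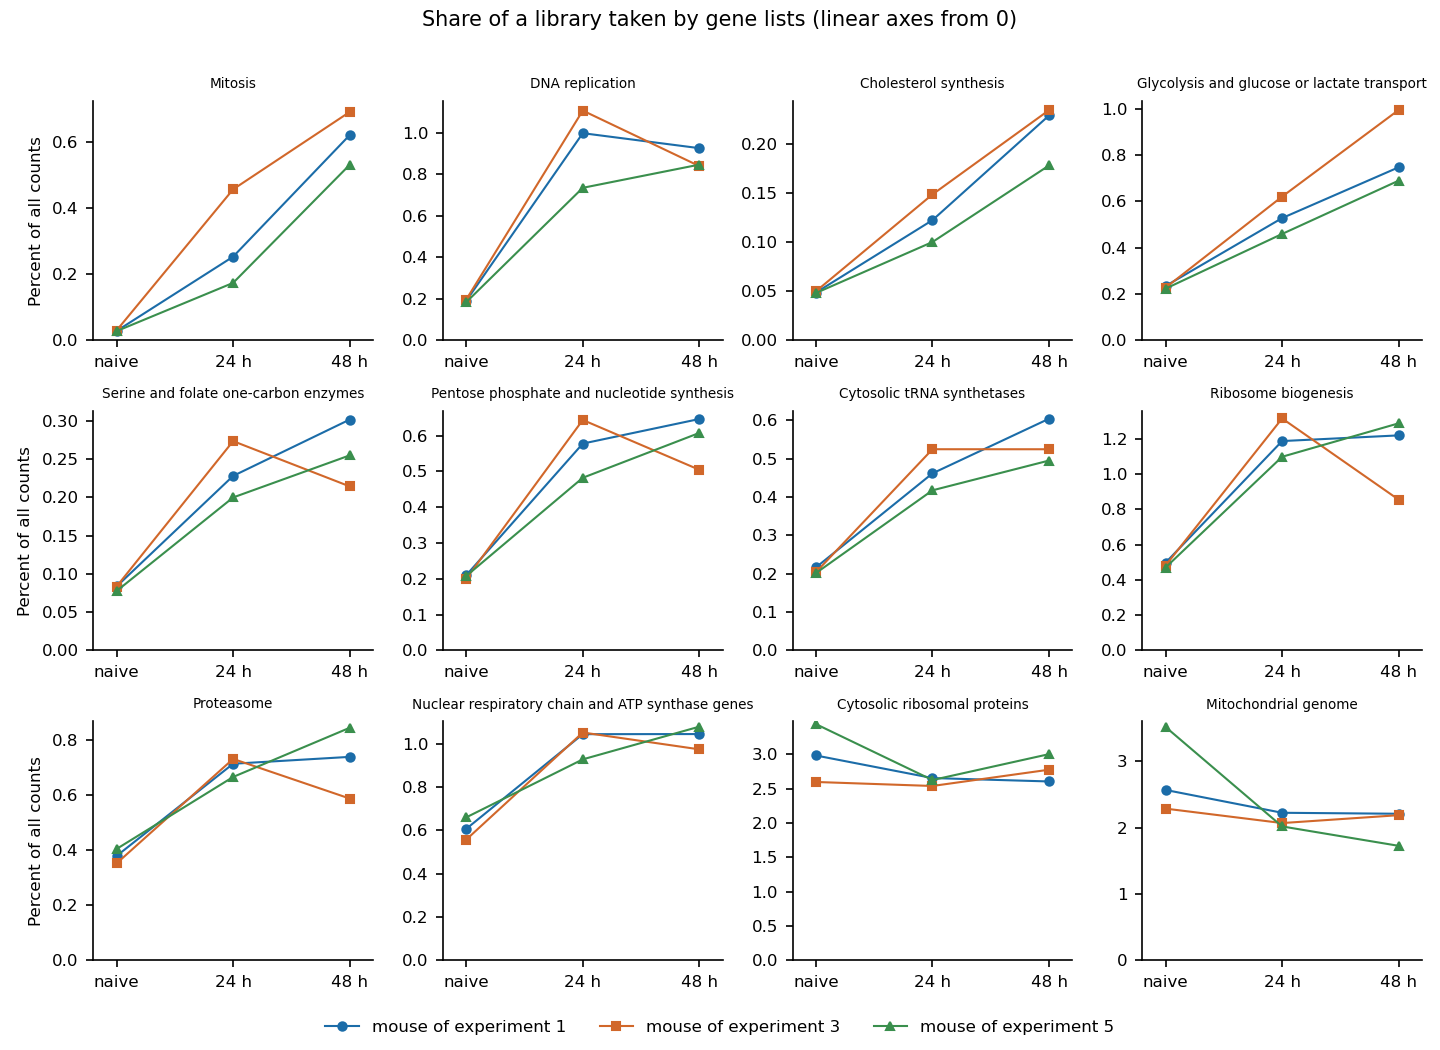
Percent of all counts of a library taken by 12 gene lists in every wild-type library (linear axes from 0), naive, at 24 h and at 48 h, with lines joining the libraries of 1 mouse. Mitosis, cholesterol synthesis and glycolysis genes gain between 24 h and 48 h in all 3 mice, replication and ribosome biogenesis genes have gained most by 24 h, and mitochondrial genome transcripts end below their naive share.

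Most nucleotide and one-carbon enzymes rose. Of 32 pentose phosphate and nucleotide synthesis genes 26 were higher, 2 lower and 4 not called (median log2 fold change 1.40). Rrm2, the limiting subunit for making deoxynucleotides, went from 5.75, 5.53 and 4.77 to 380.1, 282 and 378 CPM (log2 fold change 6.02 ± 0.45 SE, edgeR adjusted p = 3.88e-09), whereas Rrm2b, its form in non-dividing cells, fell from 40.5, 38.5 and 40.5 to 18.9, 22.8 and 19.5 CPM (log2 fold change -0.97 ± 0.17 SE, edgeR adjusted p = 1.17e-04). Tyms, which makes thymidylate, rose (log2 fold change 4.54 ± 0.38 SE, edgeR adjusted p = 1.67e-08). Among 16 serine and folate one-carbon enzymes 11 were higher, 0 lower and 5 not called (median 1.86). Psat1, of serine synthesis, stood at 31.2, 29.7 and 31.8 CPM in naive cells and 519.7, 377 and 371 CPM at 48 h (log2 fold change 3.77 ± 0.20 SE, edgeR adjusted p = 1.0e-10), and Mthfd2, the mitochondrial folate enzyme, at 30.7, 25.7 and 29 and 343, 274 and 294 CPM (log2 fold change 3.42 ± 0.26 SE, edgeR adjusted p = 4.26e-09). The groups did not overlap for either.

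Amino acid genes included 1 of the steepest rises of all. Of 23 transport and transamination genes 18 were higher, 2 lower and 3 not called (median log2 fold change 1.44). Asns, which makes asparagine (ENSMUSG00000029752, chromosome 6, 7675169 to 7693254), stood at 0.632, 0.475 and 0.348 CPM naive, 11, 39.7 and 6.02 CPM at 24 h and 103, 165 and 23.8 CPM at 48 h (log2 fold change 7.63 ± 0.97 SE, edgeR adjusted p = 2.88e-06). The 48 h libraries differed among mice, with experiment 5 lowest and experiment 3 highest, and within-mouse log2 changes were 7.30, 8.36 and 5.99. Without experiment 3 the log2 fold change was 7.0. Bcat1, which transaminates branched-chain amino acids, went from 0.915, 1.29 and 1.22 to 121, 87.4 and 91.2 CPM (log2 fold change 6.46 ± 0.26 SE, edgeR adjusted p = 8.72e-12). Slc7a5, the transporter for large neutral amino acids, went from 62.7, 67 and 55.2 to 495, 333 and 288 CPM (log2 fold change 2.59 ± 0.23 SE, edgeR adjusted p = 3.47e-08), and Slc1a5, a glutamine transporter, from 226, 222 and 213 to 449.98, 346 and 420.1 CPM (log2 fold change 0.88 ± 0.14 SE, edgeR adjusted p = 4.80e-05). Chac1 (log2 fold change 6.0) and Trib3 (log2 fold change 3.47), targets of the amino acid stress factor ATF4, rose too, while Atf4 itself stood at 288, 303 and 285 CPM naive, 174, 242 and 194 CPM at 24 h and 421, 349.6 and 386 CPM at 48 h and was not called (log2 fold change 0.40 ± 0.20 SE, edgeR adjusted p = 0.0935). It was called higher when the compared groups were fitted alone (edgeR adjusted p = 0.0298).

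Among 21 cholesterol synthesis genes 20 were higher, 0 lower and 1 not called (19 higher and 1 lower under upper-quartile scaling), with a median log2 fold change of 2.29. Hmgcs1 stood at 38.1, 41.8 and 41.8 CPM naive, 159, 185 and 97.2 CPM at 24 h and 248, 299 and 174 CPM at 48 h (log2 fold change 2.57 ± 0.24 SE, edgeR adjusted p = 5.45e-08). Cyp51, a demethylase late in the pathway, rose most, from 18.4, 20.3 and 23.4 to 318, 290.5 and 273 CPM (log2 fold change 3.83 ± 0.22 SE, edgeR adjusted p = 2.21e-10). The levels of both genes climbed from naive to 24 h and from 24 h to 48 h in all 3 mice. Of the 20 genes called higher 0 had a higher mean at 24 h than at 48 h. Genes of sterol uptake and efflux split, 8 of 16 higher and 5 lower (3 without experiment 1). These shares were 50% and 31.25%, against 29.6% and 26.8% of all tested genes. Abca1, which exports cholesterol, fell from 64.8, 75.5 and 56.4 to 6.63, 7.47 and 5.70 CPM (log2 fold change -3.31 ± 0.22 SE, edgeR adjusted p = 9.63e-10). Mylip, a ubiquitin ligase of sterol uptake, fell as well (log2 fold change -3.11).

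Fatty acid synthesis genes gave 12 of 18 higher, 2 lower and 4 not called (median log2 fold change 1.30). Scd2, a desaturase, stood at 93.6, 91.9 and 68.1 CPM in naive cells and 1287, 1683 and 813 CPM at 48 h (log2 fold change 3.90 ± 0.44 SE, edgeR adjusted p = 5.92e-07), and Acaca, the first committed enzyme, at 23.4, 21.9 and 20.8 and 87.4, 82.6 and 65.1 CPM (log2 fold change 1.83 ± 0.18 SE, edgeR adjusted p = 1.51e-07). Fads2, a desaturase of polyunsaturated fatty acids, went from 0.297, 0.267 and 0.380 to 40.5, 48.4 and 12.4 CPM (log2 fold change 6.74 ± 0.87 SE, edgeR adjusted p = 3.14e-06), lowest in experiment 5. Fatty acid oxidation genes gave 9 of 18 higher, 1 lower and 8 not called (median 0.54). The 1 lower gene was Cpt1a, the gate for fatty acids into mitochondria, with 94.5, 99.8 and 117 CPM in naive cells and 62.6, 72.7 and 46.9 CPM at 48 h (log2 fold change -0.77 ± 0.18 SE, edgeR adjusted p = 0.00166). Without experiment 5 that call was lost (edgeR adjusted p = 0.0502).

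Most nuclear genes of mitochondria rose, whereas most transcripts of the mitochondrial genome did not pass the test. Of 78 nuclear respiratory chain genes 64 were higher, 1 lower and 13 not called (median log2 fold change 0.84), and of 78 mitochondrial ribosomal protein genes 66 were higher, 1 lower and 11 not called (median 0.97). All 15 genes of the tricarboxylic acid cycle were higher (median 0.81), or 14 with library size alone and 12 under upper-quartile scaling. Under upper-quartile scaling 54 respiratory chain genes were higher and 2 lower, and 59 mitochondrial ribosomal protein genes were higher and 2 lower. Cox5a, of respiratory complex IV, stood at 61.1, 52.7 and 67.4 CPM in naive cells and 204, 165 and 281 CPM at 48 h (log2 fold change 1.84 ± 0.17 SE, edgeR adjusted p = 5.84e-08), and Cs, citrate synthase, at 212, 192 and 203 and 473, 505 and 376 CPM (log2 fold change 1.16 ± 0.14 SE, edgeR adjusted p = 1.81e-06). Among 12 tested genes of the mitochondrial genome 4 were lower, 1 higher and 7 not called (median -0.48). The lower share, 33.3%, was near the 26.8% of all tested genes, and the higher share was 8.33% against 29.6%. Within mice the medians were -0.27, 0.08 and -1.18. Transcripts of mt-Co1, of complex IV, stood at 10266, 9157 and 15059.9 CPM in naive cells and 9423, 12242 and 6940.4 CPM at 48 h and were not called (log2 fold change -0.27 ± 0.23 SE, edgeR adjusted p = 0.328). The naive library of experiment 5 was high for mt-Co1 and for mt-Cytb, a complex III gene, which stood at 4612, 3859 and 6827 CPM in naive cells and 3602, 2467 and 2885 CPM at 48 h (log2 fold change -0.77 ± 0.29 SE, edgeR adjusted p = 0.0280). Among the 4 lower calls 1 was left without experiment 3 and none without experiment 5. Without experiment 5 that of mt-Cytb had an edgeR adjusted p of 0.265. Without experiment 3 its edgeR adjusted p was 0.0680. The 1 higher call, mt-Nd3, named here after its values were seen, rests on a mean of 0.0623 CPM at 48 h against 0 counts in all naive libraries.

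Genes of contacts between mitochondria and the endoplasmic reticulum gave 15 of 28 higher, 6 lower and 7 not called (median log2 fold change 0.34). Vdac1, the outer membrane channel, rose from 92.1, 76.6 and 97.6 to 347, 338 and 321 CPM (log2 fold change 1.92 ± 0.13 SE, edgeR adjusted p = 1.51e-09), and Mcu, the mitochondrial calcium uniporter, from 11.2, 13 and 13.4 to 26.1, 42.8 and 27.3 CPM (log2 fold change 1.36 ± 0.17 SE, edgeR adjusted p = 2.15e-06). Itpr2, a calcium release channel of the endoplasmic reticulum, fell from 214, 212 and 189.7 to 65.3, 93.8 and 53.1 CPM (log2 fold change -1.54 ± 0.21 SE, edgeR adjusted p = 7.34e-06). Tcaim, the gene the series is about (ENSMUSG00000046603, chromosome 9, 122805539 to 122836334), stood at 15.2, 14.6 and 14.7 CPM naive, 9.86, 8.38 and 10.1 CPM at 24 h and 9.20, 12 and 9.03 CPM at 48 h (log2 fold change -0.56 ± 0.18 SE, edgeR adjusted p = 0.0153). The groups did not overlap, and the call was lost without experiment 1 (edgeR adjusted p = 0.130) or experiment 5 (edgeR adjusted p = 0.0971).

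Genes of protein degradation and folding mostly rose. Of 42 proteasome genes 41 were higher and 1 was not called (median log2 fold change 1.08), and of 22 chaperone genes 17 were higher, 2 lower and 3 not called (median 1.38). Hspd1, the mitochondrial chaperonin, went from 102, 106 and 113 to 669, 455 and 743 CPM (log2 fold change 2.54 ± 0.23 SE, edgeR adjusted p = 5.46e-08). The constitutive proteasome gene Psmb5 rose with a log2 fold change of 1.51 and the immunoproteasome gene Psmb9 with 0.48. The stress responses gave 16 of 26 higher, 3 lower and 7 not called (median 0.54), and Hspa5, the main chaperone of the endoplasmic reticulum, was not called, at 755, 752 and 617 CPM in naive cells and 702, 468 and 913 CPM at 48 h (log2 fold change -0.03 ± 0.21 SE, edgeR adjusted p = 0.920). Dnajb9, a cochaperone of Hspa5, fell from 106, 121 and 72.7 to 7.18, 6.44 and 9.14 CPM (log2 fold change -3.72 ± 0.24 SE, edgeR adjusted p = 5.75e-10). Among 21 antioxidant genes 13 were higher and 4 lower, led by Txn1, thioredoxin (log2 fold change 3.12 ± 0.17 SE, edgeR adjusted p = 1.62e-10). Autophagy and lysosome genes gave 3 of 30 higher, 10 lower and 17 not called, or 5 lower without experiment 1. The lower share, 33.3%, was near the 26.8% of all tested genes, and the higher share was 10% against 29.6%. Gabarapl1, an ATG8 family member, rose from 4.98, 5.35 and 4.99 to 52.4, 50.6 and 42.5 CPM (log2 fold change 3.25 ± 0.21 SE, edgeR adjusted p = 5.69e-10), against Map1lc3b, another, which fell (log2 fold change -1.66 ± 0.18 SE, edgeR adjusted p = 3.67e-07).

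The BCL2 family, which holds survival genes and death inducers, gave 7 of 17 higher, 1 lower and 9 not called (median log2 fold change 0.87). Bcl2l1, which encodes BCL-XL, went from 11, 12.4 and 13.9 to 161, 104 and 167 CPM (log2 fold change 3.53 ± 0.32 SE, edgeR adjusted p = 4.73e-08). Bcl2, which protects naive and memory cells, stood at 225, 211 and 200.2 CPM naive, 84.1, 77.1 and 82.2 CPM at 24 h and 173, 185 and 127 CPM at 48 h and was not called over the 48 h (log2 fold change -0.39 ± 0.26 SE, edgeR adjusted p = 0.202), although every 24 h library lay below the 6 others. Fitted with the compared groups alone it was called lower (edgeR adjusted p = 0.0487). Mcl1, of the same prosurvival branch, fell from 588, 643 and 589.9 to 327, 286 and 487 CPM (log2 fold change -0.73 ± 0.16 SE, edgeR adjusted p = 0.00103). Bcl2l11, which encodes the death inducer BIM, was not called (log2 fold change 0.39 ± 0.25 SE, edgeR adjusted p = 0.190).

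Type I interferon-stimulated genes were lower, 17 of 25, with 2 higher and 6 not called and a median log2 fold change of -1.56. Within mice the medians were -1.82, -2.09 and -1.08, the smallest in experiment 5. Irf7, which amplifies interferon production, went from 91, 105 and 96.6 to 12.7, 10.9 and 27.4 CPM (log2 fold change -2.52 ± 0.50 SE, edgeR adjusted p = 3.15e-04), and Ifit1, an antiviral effector, from 43.5, 59 and 45.1 to 8.46, 7.72 and 17.8 CPM (log2 fold change -2.12 ± 0.39 SE, edgeR adjusted p = 1.59e-04). Oas2 fell most in the list among genes above 5 CPM (log2 fold change -4.76 ± 0.51 SE, edgeR adjusted p = 3.15e-07), with a log2 fold change of -5.81 without experiment 5. Gbp2, a GTPase induced by interferon-gamma, went up, with 133, 131 and 123 CPM naive, 1148, 1121 and 1124 CPM at 24 h and 529, 294 and 705 CPM at 48 h (log2 fold change 1.98 ± 0.42 SE, edgeR adjusted p = 5.96e-04). Isg15, a ubiquitin-like modifier, stood at 16.5, 22.2 and 18.9 CPM naive, 2.25, 2.61 and 3.85 CPM at 24 h and 7.68, 7.65 and 16 CPM at 48 h and was not called (log2 fold change -0.88 ± 0.41 SE, edgeR adjusted p = 0.0783). Only 5 of 11 alternative fits shared that outcome. With the replicate block it was called lower (edgeR adjusted p = 0.0326), as under upper-quartile scaling (edgeR adjusted p = 0.0292) and without experiment 5 (edgeR adjusted p = 0.0335). Bst2, which tethers virus particles, was with Gbp2 the other gene of the list that rose (log2 fold change 1.16).

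Some genes were highest or lowest at 24 h. Of 4278 genes not called over the 48 h and above 5 CPM in a wild-type library, 22 (0.514%) had all 24 h libraries above the other 6 with a mean of at least 2 times theirs, and 43 (1.01%) had them below with a mean of at most 0.5 times theirs. Bcl2 and Isg15, above, are among those lowest at 24 h, although Isg15 stayed below its naive values in the 48 h libraries.

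**Figure D5:**
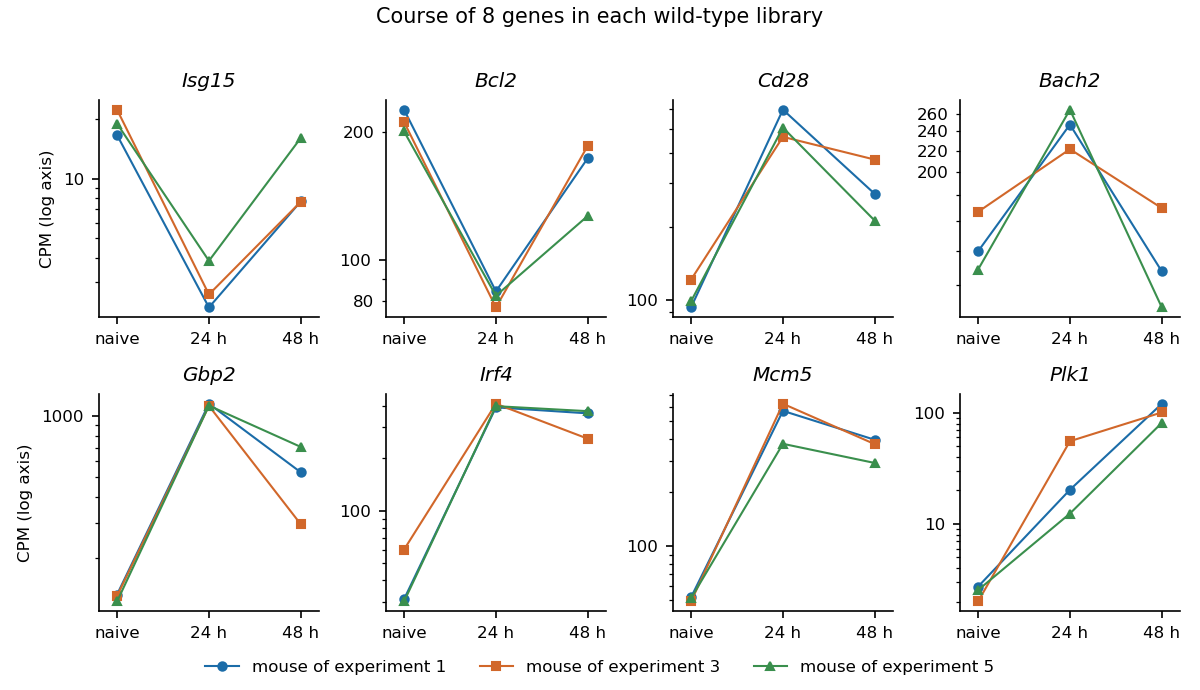
Level in CPM (log axis, own range for each gene) of 8 genes in every wild-type library, naive, at 24 h and at 48 h, with lines joining the libraries of 1 mouse. Bach2, Cd28 and Gbp2 are highest at 24 h, Bcl2 and Isg15 are lowest there, Irf4 and Mcm5 are at their highest in each mouse at 24 h, and Plk1 climbs throughout.

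Across all listed genes above 10 CPM the steepest rises, apart from Gzmb, Asns and members of the mitosis list, included Serpine2, which encodes a serine protease inhibitor, from 0.400, 0.326 and 0.618 to 67.1, 60.9 and 174 CPM (log2 fold change 7.82 ± 0.73 SE, edgeR adjusted p = 6.40e-08), and Hmmr, a spindle-associated hyaluronan receptor outside that list (log2 fold change 7.35 ± 0.55 SE, edgeR adjusted p = 4.26e-09). The steepest falls included genes of other cells, such as Lyz2 of myeloid cells and Ncr1 of natural killer cells, next to Fos and Gzma. Lyz2 stood at 44, 74.5 and 134 CPM in naive cells and 0.131, 0.139 and 2.16 CPM at 48 h (log2 fold change -6.72 ± 1.36 SE, edgeR adjusted p = 4.01e-04), and its log2 fold change was -8.76 without experiment 5 and -7.57 with the replicate block. Ggt1, which breaks down glutathione outside cells, fell from 84.4, 63.8 and 59 to 0.954, 1.95 and 0.965 CPM (log2 fold change -5.74 ± 0.48 SE, edgeR adjusted p = 1.77e-08). Every library at 48 h lay far below every naive library. Among the most abundant genes that were not called with a standard error under 0.2 were Eef1a1, a translation elongation factor at 8675, 7297 and 8957 CPM in naive cells and 7601, 9216 and 8104 CPM at 48 h (log2 fold change -4.51e-04 ± 0.16 SE, edgeR adjusted p = 0.999), Rpl4 (log2 fold change 0.26 ± 0.15 SE, edgeR adjusted p = 0.161) and Rack1 (log2 fold change -0.06 ± 0.15 SE, edgeR adjusted p = 0.753). In FPKM the largest gain of all listed genes was that of Gzmb, and Hsp90ab1, Xcl1 and Ldha were also among the 5 largest, whereas Rps27rt, mt-Cytb and mt-Co1 were among the 5 largest losses. Of these losses that of mt-Co1 was not called, and the call of mt-Cytb was lost without experiment 3 or 5.

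The wild-type response was set against that of KI and KO-labelled cells by testing the difference in response from naive to 48 h in the same edgeR fit. It differed from the KI response at an adjusted p under 0.05 in 82 of 21183 genes (0.387%), 29 with a higher and 53 with a lower change in KI cells. With the replicate block 187 genes differed, 100 with a higher and 87 with a lower change in KI cells. The count was 0, 5 and 1 without experiments 1, 3 and 5, fits that rest on 2 mice per genotype. Ccr9 fell less in KI cells (difference 2.27 on the log2 scale, edgeR adjusted p = 0.0439), and the change of Tcaim, the gene altered in that line, was higher there (difference 1.33, edgeR adjusted p = 0.0292). Of the sterol genes Mvd (log2 fold change 1.40) and Fdft1 (log2 fold change 2.29) rose in wild-type cells, and the change in KI cells minus that in wild-type cells was -1.68 and -1.17 on the log2 scale. Against the KO-labelled response the count was 0 of 21183 (0%), with 496 genes at an unadjusted p under 0.05 and 0 calls by DESeq2. It was 1212 without experiment 5, a fit with 1 KO-labelled mouse, whose 48 h library lay at -67.5 on the second principal component.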

How the data were processed

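CD8+ T cell RNA was sequenced as paired-end reads from stranded mRNA libraries, per the labels' protocols. The authors deposited read counts per gene and FPKM values. Per the submitters' processing notes the tools were bcl2fastq 2.20.0, TopHat2 2.1.0 with Bowtie2 2.2.5, SAMtools 0.1.19, featureCounts and DESeq2 1.6.3, with the mouse genome GRCm38. Whether strand was used in counting is not given in the sources used here, and 54 of the printed genes share exon positions with another annotated gene, so their counts may include its reads. Pseudogenes held 7.36% to 10.1% of the counts of wild-type libraries.

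The deposited counts of 22 libraries were fitted with edgeR 4.0.16 in R 4.3.3 as 8 group means (genotype by time; filterByExpr, TMM scaling, quasi-likelihood test, Benjamini-Hochberg adjustment over 21183 genes, called at an adjusted p under 0.05). Libraries of all groups entered, so that 14 residual degrees of freedom set the spread. CPM of single genes are counts divided by the TMM-scaled library size, while summed marker levels and shares of counts use total counts without TMM scaling. The standard error is the log2 fold change divided by the root of the F statistic. Within-mouse changes are on log2 CPM with a prior count of 2. FPKM, deposited by the authors, were used only for ranks and levels, as the mean over libraries. In simulated data with 20830 tested genes, 100 genes changed 2-fold and 100 changed 4-fold, evenly up and down, and all others kept their naive level. There the test recovered 57% of 2-fold and 92% of 4-fold changes with 4 false calls. The real comparison called 56.4% of genes, so these rates need not hold for it.

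Libraries were paired by experiment number, since each experiment holds 1 wild-type mouse. Deviations from the group means correlated at 0.223, 0.247 and 0.392 within the 3 mice and at -0.288 to 0.0984 between mice. The main fit has no mouse term, and the fit with it is an alternative. Replicates differed beyond counting noise (chi-square per degree of freedom 28.9 to 289). Alternatives were DESeq2 1.42.0, other scalings, no filter, the compared groups alone, the mouse as a block, and leaving out each experiment.

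Members and gene lists were chosen with earlier results of these data known. Named genes were those marked in a list, the 2 highest and 2 lowest called members of each list at 5 CPM or more, the 12 largest rises and falls at 10 CPM or more, the 10 most abundant genes not called with a standard error under 0.2, the 5 largest FPKM gains and losses, and the 5 smallest p of each response test. Positions are as in the deposited tables, and promoters were matched by symbol to RefSeq. Of the listed members, those below the filter were not tested, and the counts above give tested members. Some genes that this rule names are not reported here.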

Additional observations from a re-analysis of the deposited data

Results flagged for a closer look

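The response from naive to 48 h differed between KI and wild-type cells for 7 of 169 printed genes, with 3 mice per genotype. The edgeR test was of the difference itself, and it called 82 of all 21183 tested genes (0.387%). Genes with the smallest p of that test were among those chosen for printing, so the 7 are not an unselected count. For the interferon-stimulated genes the KI response minus the wild-type response was -2.0 for Bst2 (adjusted p = 0.00945) and -2.86 for Isg15 (adjusted p = 0.0428) on the log2 scale. For the cholesterol synthesis genes it was -1.68 for Mvd (adjusted p = 9.27e-04) and -1.17 for Fdft1 (adjusted p = 0.00567). It was -2.22 for Oas3, an antiviral enzyme gene that was lower at 48 h in wild-type cells (log2 fold change -0.74), with an adjusted p of 2.23e-04. In the other direction it was 2.27 for Ccr9 (adjusted p = 0.0439) and 1.33 for Tcaim (adjusted p = 0.0292). None of these differences kept an adjusted p under 0.05 without experiment 1, where the edgeR count of such genes was 0.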

How the results depend on the processing

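The comparison of 48 h with naive gave 10486 to 12416 called genes under the other scalings, filters, models and the DESeq2 Wald test. Without one experiment the count was 8780 to 10377, with 4998 to 5559 genes higher and 3782 to 4935 lower, and 3782 is the count lower without experiment 1. Of 43 list medians 4 changed sign: cytokine receptors turned from 0.16 to -0.0600 under upper-quartile scaling and were -0.0193 to 0.256 without one experiment, T cell fate factors from 0.21 to -0.0175 under upper-quartile scaling, cytotoxic genes from -0.03 to a range of -0.339 to 0.0704 without one experiment, and cytosolic ribosomal proteins from -0.02 to 0.000596 with no filter on low counts and a range of -0.110 to 0.0164 without one experiment. The cause of these changes of sign was not tested. The difference between KI and wild-type response counted 82 genes (29 higher, 53 lower), against 360 genes with the DESeq2 Wald test (164 higher, 196 lower) and 138 with the compared groups alone (60 higher). Without one experiment it was 0 to 5 genes, with 0 to 2 higher and 0 to 3 lower, fits with fewer mice. The difference against the KO-labelled response was 0 in all alternatives except without experiment 5, where 1212 genes were called (406 higher, 806 lower).

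The mouse was added as a replicate block because libraries of 1 experiment and genotype come from the same mouse. With the replicate block 12339 genes were called at 48 h against naive (6305 higher, 6034 lower). The difference between KI and wild-type response rose to 187 genes (100 higher, 87 lower) with the block, and to 233 genes (133 higher, 100 lower) with the compared groups alone and the block. For the printed genes the block ended the call of Slc2a3 and made one of Isg15, and it changed no other call of theirs.

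The number of mice, 3 per group, limits the precision, and low genes such as Il2 rest on few counts.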
